A study of Drosophila melanogaster with 7 samples.

Results

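Genes of general neuronal and photoreceptor differentiation were followed in Drosophila melanogaster eye imaginal discs in which the receptor tyrosine kinase Sevenless was altered. The group comprised 10 genes listed for what they are known to do, namely Appl, Rop, chp, nrv3, elav, futsch, gl, Rbp9, fne and Syt1. They were chosen with earlier results of these data known. Of these, 9 had a probe named for them, 6 had a value on at least 1 array, and 5 could be tested, of 5971 genes with a value and 3586 tested.

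The mutant RNA came from sevS11 discs, which carry an activated, truncated form of Sevenless, and from sevd2;+;+ discs, an allele known to lose sev function. Both were hybridised on 2-colour arrays against a common pool of RNA from w1118;+;+, an isogenic wild-type strain. All 3 genotypes had the w1118 background, and the discs were dissected from larvae of the third instar staged with bromophenol blue. There were 3 arrays for sevS11, a dye-swapped pair of extraction 1 (arrays 1 and 2) and a single array of extraction 2 (array 3), and 4 for sevd2, a dye-swapped pair for each of 2 extractions (arrays 1 and 2, then 3 and 4). The labels call the extractions biological replicates but tie none to particular larvae. P-values of the main fit reflect the spread from one extraction to the next. Those of the array-level fit, an alternative used below, also draw on the spread between arrays of 1 extraction, which are repeats of the same RNA. The promoter driving sevS11 is not named.

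In the developing eye, cells recruited behind the morphogenetic furrow become neurons one photoreceptor class after another, and Sevenless signals through Ras and MAP kinase to assign the R7 fate. As neurons form they switch on RNA-binding proteins of the ELAV family, surface and axonal proteins, and later the machinery of exocytosis and of ion transport. The zinc finger protein Glass is required for photoreceptors to differentiate, and chaoptin, the product of chp, is an adhesion protein of photoreceptor membranes.

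Values are log ratios, taken as base 2 and likely of mutant over pool. Base and direction are not stated in the sources used here, and the direction was taken from sev, whose ratio was 1.81, 1.90 and 4.33 on the 3 sevS11 arrays, against -0.46, -0.17 and -0.41 on the 3 sevd2 arrays with a value. Were the direction the opposite, every sign below would turn. Means are given with the standard error (SE) of a limma fit in which both genotypes shared 1 spread, over n = 2 extractions each, and a gene was called at an adjusted p under 0.05. In bulk discs, fewer cells of a type and less RNA per cell cannot be told apart.

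The arrays held values for 5194 to 7009 probes in sevS11 and 4701 to 5691 in sevd2, and the median absolute deviation of the ratios was 0.207 to 0.289 on sevS11 arrays and 0.117 to 0.167 on sevd2 arrays. Array 3 of sevS11 stood apart from the other arrays of its genotype. Across genes it correlated at 0.529 and 0.360 with sevS11 arrays 1 and 2, which correlated at 0.889 with each other, and at 0.304 to 0.517 with the 4 sevd2 arrays. For the differentiation genes its values are therefore given beside those of arrays 1 and 2, while most other genes are given by their means. One label field calls the pool wing discs while the others call it eye discs. All 8 eye field genes with a named probe had values, with array medians between -0.11 and 0.14 in sevS11 and between -0.01 and 0.24 in sevd2. Of 7 wing genes with a probe 4 had a value, while vg, nub and pdm2 had none on any array. The only wing gene tested, bs, stood at -0.10 ± 0.10 in sevS11 and 0.23 ± 0.10 in sevd2. It passed in neither (limma, adjusted p = 0.546 and 0.537).

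Of the differentiation genes, Appl was higher in sevS11 than in the pool by 0.72 ± 0.14 (1.64-fold; limma, adjusted p = 0.0419) and was the only one of 5 tested to pass. Over all genes tested, 5.77% passed in this comparison and 2.18% passed as higher. Against the pool in sevd2, and between sevS11 and sevd2 directly, 0 of the 5 passed (limma; 2 and 3 at an unadjusted p under 0.05, beside 9.76% and 12.7% of all genes tested), with 0.0837% and 0.0558% of all genes passing. The other neuronal genes nrv3 and elav lay above 0 in sevS11 without passing, and chp and Rop lay below 0 without passing. At an unadjusted p under 0.05 all 5 were included in sevS11, as were 25.3% of all genes tested.

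**Figure D1:**
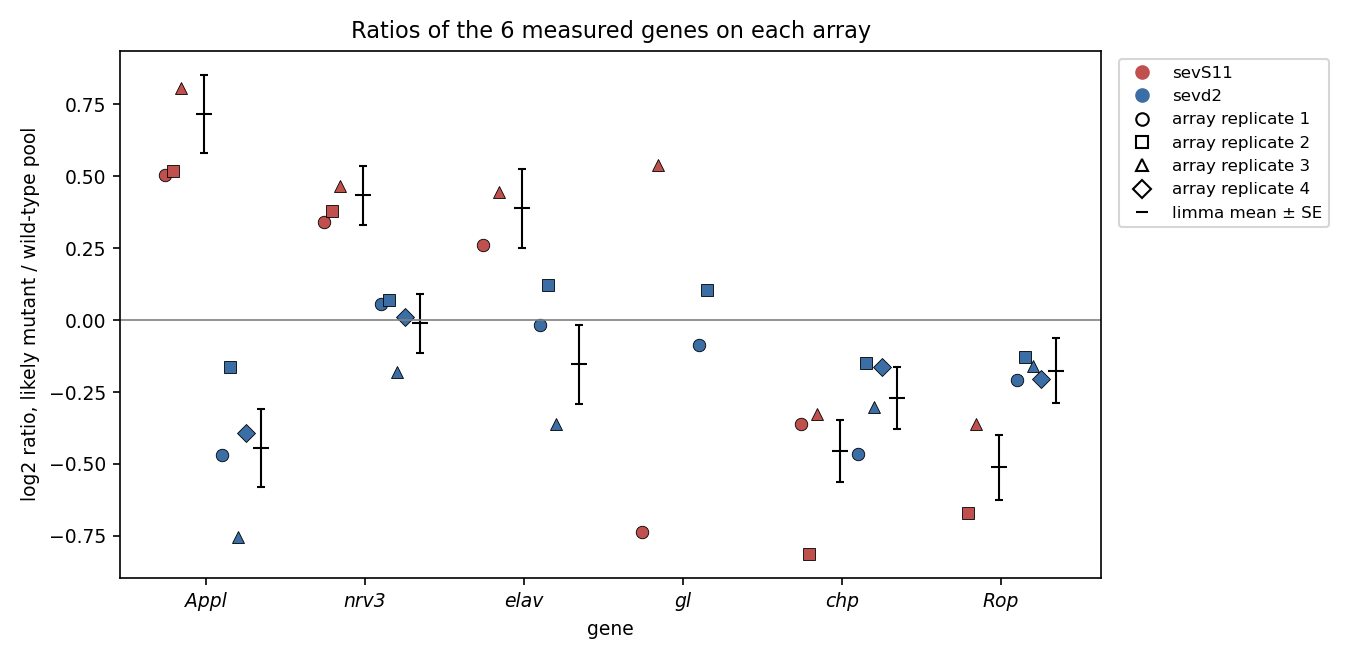
Log2 ratio (likely mutant over wild-type pool, vertical axis) of the 6 genes with a value on each array, with sevS11 in red left of sevd2 in blue; symbols give the array number, and black bars the limma mean ± SE for tested genes. Appl lies between 0.50 and 0.81 on the sevS11 arrays and between -0.75 and -0.16 on the sevd2 arrays, whereas chp lies below 0 on every array and gl spans both signs within sevS11.

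Appl encodes the fly counterpart of the amyloid precursor protein, a transmembrane protein of neurons. Its ratio was 0.50, 0.52 and 0.81 on sevS11 arrays 1 to 3, against -0.47, -0.16, -0.75 and -0.39 on sevd2 arrays 1 to 4. Every sevS11 ratio was positive and every sevd2 ratio negative, so the genotypes did not overlap. Such opposite signs on all 7 arrays were found for 7.08% of the 2261 genes with a value on every array. Relative to the other genes of each array, Appl was above 91.3%, 90.4% and 98.3% of genes in sevS11, against 5.1%, 15.7%, 1.2% and 2.6% in sevd2.

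The sevd2 mean of Appl was -0.44 ± 0.14 (0.735-fold), which did not pass (limma, adjusted p = 0.360). The difference of sevS11 minus sevd2 was 1.16 ± 0.19, a 2.24-fold difference with a 95% interval of 0.69 to 1.63 on the log2 scale. It was larger than that of 99.2% of genes tested in absolute size but did not pass over all genes (limma, adjusted p = 0.115). The call in sevS11 ended without sevS11 array 1 (0.75, limma adjusted p = 0.0736), without the dye correction of sevS11 array 3 (0.66, adjusted p = 0.0506), with arrays scaled to 1 spread (0.59, adjusted p = 0.0895) and with quantile normalisation (0.53, adjusted p = 0.0723). Without sevS11 array 3, which left 1 sevS11 extraction, the sevS11 ratio was 0.51 and the difference 0.96. The difference passed in an array-level fit (1.14, limma adjusted p = 0.0371). There each array entered singly, with a correlation of 0.765 within an extraction, so technical arrays added to the degrees of freedom.

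Several markers of blood cells, like Appl, had higher ratios in sevS11 than in sevd2. Their list too was drawn up with earlier results of these data known. Of 11 hemocyte genes all had a value, and array medians of the list were 0.58, 0.41 and 0.04 on sevS11 arrays 1 to 3, against -1.21 to -0.55 in sevd2. These medians rested on different genes, 8, 9 and 11 of them on sevS11 arrays 1 to 3. Among 7 tested, the prophenoloxidase genes PPO2 (1.75 ± 0.12, limma adjusted p = 0.00622) and PPO1 (1.13 ± 0.12, adjusted p = 0.0133) and the surface protein gene He (1.26 ± 0.18, adjusted p = 0.0264) rose in sevS11. Without the dye correction He no longer passed (1.15, limma adjusted p = 0.0552). NimC1 stood at -0.25 ± 0.17 and SPARC at -0.24 ± 0.12 in sevS11. On sevS11 array 3 He was at 0.75, against 1.44 and 1.68 on arrays 1 and 2. PPO1 was at 0.81 there, against 1.30 and 1.33, and PPO2 at 1.62, against 1.86 and 1.73. In sevS11 minus sevd2, PPO2 (2.72 ± 0.17, adjusted p = 0.0180) and PPO1 (2.10 ± 0.17, adjusted p = 0.0429) were higher, though the PPO1 call ended in 8 of 23 alternatives, among them no dye correction (2.03, adjusted p = 0.145) and without sevd2 array 3 (1.97, adjusted p = 0.0537). The hemocyte genes Hml, Pxn and vkg had no value on any sevd2 array. The part of these cells in the Appl ratio was not tested.

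A list of neurotransmitter genes and the sodium channel gene para, taken for brain neurons, was also set beside it. The eye disc is joined to the brain by the optic stalk. Whether these genes mark brain neurons alone was not tested. Of 11 such genes 5 had a value, and ChAT, VAChT, Gad1, Vmat, SerT and Rdl had none. Of 3 tested none passed in sevS11 (limma; 2 at an unadjusted p under 0.05), nor in the other contrasts (0 at an unadjusted p under 0.05). All 3 means lay above 0 in sevS11, with a median of 0.47. Array medians of the list were 0.46, 0.98 and -0.02 on sevS11 arrays 1 to 3, against -0.06 to 0.12 in sevd2. They rested on 4, 3 and 5 genes in sevS11, and on 1 gene on sevd2 array 4. Before the dye correction, VGlut was at -0.02 and Ddc at -0.16 on sevS11 array 3. For VGlut that correction came from the pair of sevd2 extraction 1 alone. DAT, not tested, had 0.03, -0.03 and -0.78 on the sevS11 arrays and no value in sevd2. The sodium channel gene para was at 0.68 and 0.98 on sevS11 arrays 1 and 2 and 0.03 on array 3, against 0.02 to 0.12 in sevd2. The dopamine synthesis gene ple had 0.35 on sevS11 array 3 and no value elsewhere. The part of brain neurons in the Appl ratio was not tested. The glial fate gene repo was at -0.24, -0.21 and -0.52 on the sevS11 arrays, against 0.11 and -0.57 on the 2 sevd2 arrays with a value, and 0 of 4 tested glial genes passed in sevS11 (limma; 0 at an unadjusted p under 0.05).

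The APPL protein is known to be cleaved by secretases and bound by cytoplasmic adaptors, and genes of both kinds were examined as a list. None of 4 tested passed in sevS11, in sevd2 or in their difference, where 5.77%, 0.0837% and 0.0558% of all genes tested did (limma). At an unadjusted p under 0.05 there were 1, 0 and 0, beside 25.3%, 9.76% and 12.7%. With such shares, 0 of 4 says little about the list. The alpha-secretase gene kuz had 0.40, 0.27 and 0.35 on the sevS11 arrays, against 0.25, 0.15, -0.02 and 0.05 on the sevd2 arrays, and its sevS11 mean was 0.33 ± 0.10 (limma, adjusted p = 0.118). The presenilin gene Psn stood at -0.23 ± 0.11 in sevS11 and -0.18 ± 0.11 in sevd2. The list median was -0.06 in sevS11 and -0.13 in sevd2, beside medians over all genes tested of -0.00 and 0.01.

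Over all 7 arrays, the ratios closest to those of Appl among 2260 other genes were those of CG17211, CG5326 and Col4a1, a basement membrane collagen gene of hemocytes and fat body. Their root mean square differences from Appl were 0.203, 0.220 and 0.256 log2 units. Like Appl, each of the 3 had positive ratios in sevS11 and negative ratios in sevd2 on every array. This largely follows from their choice by closeness on these same arrays.

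elav encodes the RNA-binding protein ELAV, present in all neurons and used as their standard marker. It had values on 5 arrays, 0.26 and 0.45 on sevS11 arrays 1 and 3, against -0.02, 0.12 and -0.36 on sevd2 arrays 1 to 3. The genotypes did not overlap, but the sevd2 values spanned 0. The sevS11 mean was 0.39 ± 0.14 (limma, adjusted p = 0.154) and the sevd2 mean -0.15 ± 0.14 (adjusted p = 0.821). Their difference of 0.54 ± 0.19, with a 95% interval of 0.07 to 1.02, did not pass (limma, adjusted p = 0.340). As 1 array of a swapped pair was missing in extraction 1 of sevS11 and in extraction 2 of sevd2, each of these rested on 1 dye orientation.

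The other ELAV family genes, fne and Rbp9, had no value on any array, with 1 and 3 probes. Of 7 tested genes for other RNA-binding proteins of neurons, Syp rose in sevS11 (1.30 ± 0.14, limma adjusted p = 0.0145) and 6 did not pass. Its 2 probes with values gave 0.63 and 1.97. Tested singly, the lower of these did not pass (limma, adjusted p = 0.0983). Syp stood at 1.28 ± 0.14 in sevd2 (limma, adjusted p = 0.0541), and the difference between the genotypes was 0.02 ± 0.20. The list median was 0.24 in sevS11 and 0.05 in sevd2.

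nrv3 encodes a beta subunit of the sodium pump found in the nervous system. It had 0.34, 0.38 and 0.47 on the sevS11 arrays, against 0.05, 0.07, -0.18 and 0.01 on the sevd2 arrays. The sevS11 values lay close together and above all sevd2 values, of which 3 were above 0 and 1 below. The mean was 0.43 ± 0.10 in sevS11 (1.35-fold; limma, adjusted p = 0.0720) and -0.01 ± 0.10 in sevd2 (adjusted p = 0.985), and the difference of 0.44 ± 0.14 did not pass (adjusted p = 0.298). In the array-level fit nrv3 passed in sevS11 (0.43, limma adjusted p = 0.0380). The beta subunit genes expressed more widely, nrv1 and nrv2, stood at -0.15 ± 0.10 and -0.02 ± 0.10 in sevS11, against -0.02 ± 0.10 and -0.12 ± 0.10 in sevd2, and neither passed. The genes closest to nrv3 over the 7 arrays were Gr39a, X11Lbeta and CG32797, with root mean square differences of 0.066, 0.078 and 0.097.

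**Figure D2:**
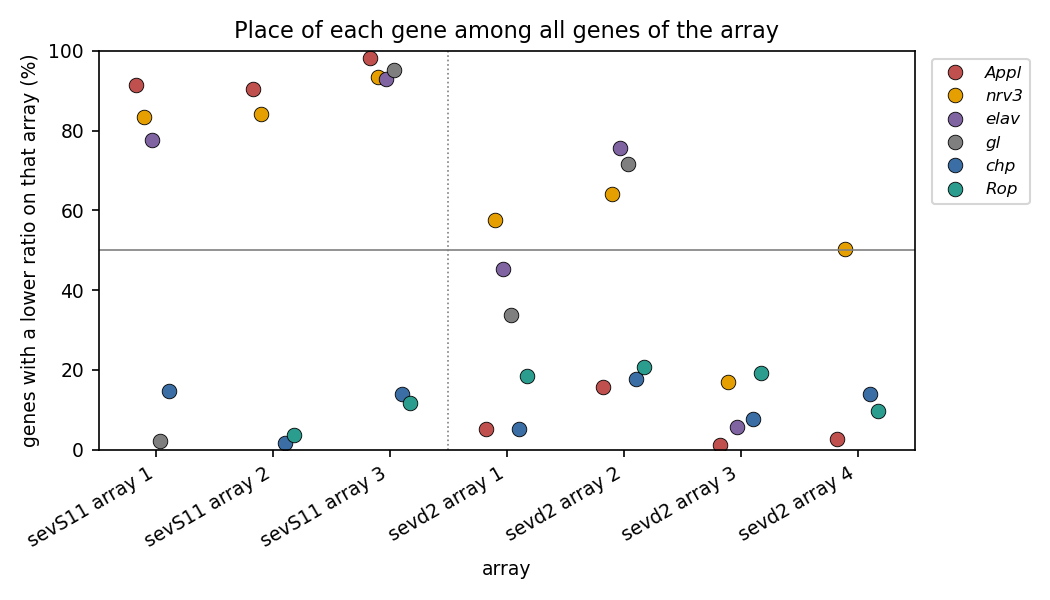
Share of genes on an array with a ratio below that of each of the 6 genes (%, vertical axis), for the 3 sevS11 arrays and then the 4 sevd2 arrays; each point is 1 gene on 1 array. Appl is above at least 90.4% of genes on the sevS11 arrays and above at most 15.7% on the sevd2 arrays, while chp and Rop stay at or below 20.6% on every array with a value.

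chp, the gene of the photoreceptor adhesion protein chaoptin, was below 0 on all 7 arrays. It had -0.36, -0.81 and -0.32 on the sevS11 arrays, against -0.46, -0.15, -0.30 and -0.16 on the sevd2 arrays, and the genotypes overlapped. The means were -0.46 ± 0.11 in sevS11 (0.729-fold; limma, adjusted p = 0.0734) and -0.27 ± 0.11 in sevd2 (adjusted p = 0.504). The difference of -0.19 ± 0.15, with a 95% interval of -0.56 to 0.19, did not pass (limma, adjusted p = 0.597). Both comparisons use the same pool, so a value in the pool enters both. The sevS11 mean passed without sevd2 array 1 (-0.49, limma adjusted p = 0.0459) and with the dye effect taken from the sevS11 pair alone (-0.57, adjusted p = 0.0294). It was -0.29 without sevS11 array 2 (limma, adjusted p = 0.132), -0.21 without sevS11 extraction 1 (adjusted p = 0.121) and -0.47 in the array-level fit (adjusted p = 0.187). Within that pair the arrays differed by dye orientation, at -0.36 and -0.81. The genes closest to chp over the 7 arrays were btsz, GNBP3 and nst, at root mean square differences of 0.104, 0.120 and 0.134.

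Rop encodes the Sec1/Munc18 protein that acts with syntaxin in vesicle fusion, at synapses and in general secretion. It had no value on sevS11 array 1, -0.67 and -0.36 on sevS11 arrays 2 and 3, against -0.21, -0.13, -0.16 and -0.20 on the sevd2 arrays. All 6 values were below 0 and the sevS11 values were below all sevd2 values. Extraction 1 of sevS11 thus rested on array 2 alone, in 1 dye orientation. The sevS11 mean was -0.51 ± 0.11 (0.701-fold; limma, adjusted p = 0.0634), the sevd2 mean -0.18 ± 0.11 (adjusted p = 0.704) and the difference -0.34 ± 0.16 (adjusted p = 0.438). The sevS11 mean passed without sevd2 array 1 or 2 (-0.53 in both, limma adjusted p = 0.0473 and 0.0492) and in the array-level fit (-0.52, adjusted p = 0.0307).

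Of the wider machinery of exocytosis and endocytosis, 18 of 22 listed genes had a probe and 6 of these a value. Syt1, a calcium sensor of vesicle fusion, had no probe named for it, and nSyb, Snap25, brp, cpx, Syn and cac had none with a value. Of 5 tested, unc-13, a vesicle priming factor, rose in sevS11 and 4 did not pass. It had 0.48, 0.53 and 0.95 on the sevS11 arrays, against 0.44 and 0.18 on the 2 sevd2 arrays with a value. The sevd2 mean was 0.31 ± 0.14 (limma, adjusted p = 0.583), and the difference of sevS11 minus sevd2, 0.43 ± 0.20, did not pass (adjusted p = 0.438). Against the pool, the sevS11 mean was 0.74 ± 0.14 (limma, adjusted p = 0.0452). The call ended in 6 of 20 alternatives, among them without sevS11 array 1 (0.74, limma adjusted p = 0.0715) and with quantile normalisation (0.55, adjusted p = 0.0602). The fusion cofactor gene alphaSnap stood at -0.17 ± 0.12 in sevS11 and -0.75 ± 0.12 in sevd2 (adjusted p = 0.0995), below 0 on all 7 arrays. The list median was -0.00 in sevS11 and -0.01 in sevd2, close to the medians over all genes tested.

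gl, which encodes the transcription factor Glass, had values on 4 arrays and was not tested, as extraction 2 of sevd2 had none. It had -0.74 on sevS11 array 1 and 0.54 on array 3, against -0.09 and 0.10 on sevd2 arrays 1 and 2. The sevS11 values were of opposite sign and lay on either side of the sevd2 values. On array 1 gl was above 2.2% of genes and on array 3 above 95.1%. In a fit of genes with a value in at least 1 extraction of each genotype its sevS11 mean was -0.05 (limma, adjusted p = 0.938). The spread between extractions was thus far larger than the mean.

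**Figure D3:**
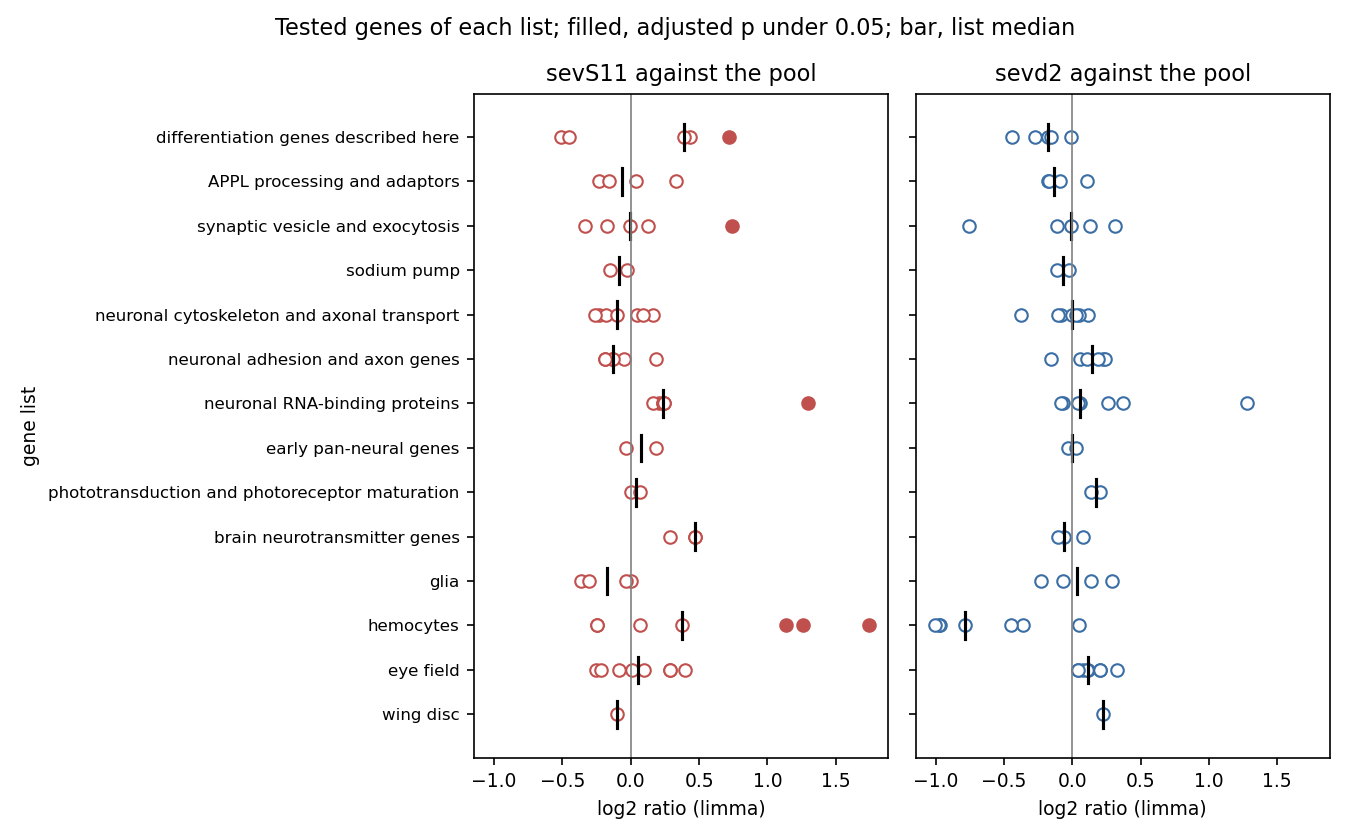
Limma log2 ratios against the pool (horizontal axis) of the tested genes of each list (rows), for sevS11 in red at left and sevd2 in blue at right; filled points had an adjusted p under 0.05 and black bars are list medians. In sevS11 the filled points are Appl (0.72), unc-13 (0.74), Syp (1.30) and the hemocyte genes PPO1, He and PPO2, and no point is filled for sevd2.

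futsch, the microtubule-associated protein gene whose product is the 22C10 antigen of neurons, had 1 probe and no value. Of 7 tested genes for the cytoskeleton and axonal transport none passed in sevS11 or sevd2 (limma; 0 and 0 at an unadjusted p under 0.05), with medians of -0.10 and -0.00. The kinesin light chain gene Klc stood at -0.23 ± 0.10 in sevS11 and -0.10 ± 0.10 in sevd2, and the stathmin gene stai at 0.17 ± 0.10 and -0.08 ± 0.10. Of 6 tested neuronal adhesion and axon genes none passed either, beside the same shares of all genes (limma, 0 and 0 at an unadjusted p under 0.05). The neuroglian gene Nrg stood at -0.13 ± 0.10 in sevS11 and 0.05 ± 0.10 in sevd2, and the sidekick gene sdk at -0.13 ± 0.13 and 0.24 ± 0.13. For sdk, Cont, Ptp69D and Fas1 the sevS11 arrays disagreed, with arrays 1 and 2 below 0 and array 3 above.

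Genes that act before and after these in a photoreceptor's life were measured more sparsely. Of 6 early pan-neural genes with a value, 2 were tested. The proneural gene ato of the R8 founder cell stood at 0.19 ± 0.09 in sevS11 and 0.03 ± 0.09 in sevd2, and lola at -0.04 ± 0.13 and -0.03 ± 0.13. Of those not tested, dpn had 0.33, 0.20 and 0.55 on the sevS11 arrays and no value in sevd2. insc had -0.13, -0.19 and -0.49 on the sevS11 arrays, against 0.34 on sevd2 array 1. ase and sens had values on fewer sevS11 arrays. Of 15 phototransduction and photoreceptor maturation genes with a probe, 3 had a value, where 49.5% of all named genes had one. Those without one included trp, trpl, Arr1, Arr2, inaD and Pph13. The apical polarity gene crb stood at 0.00 ± 0.13 in sevS11 and 0.20 ± 0.13 in sevd2.

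**Figure D4:**
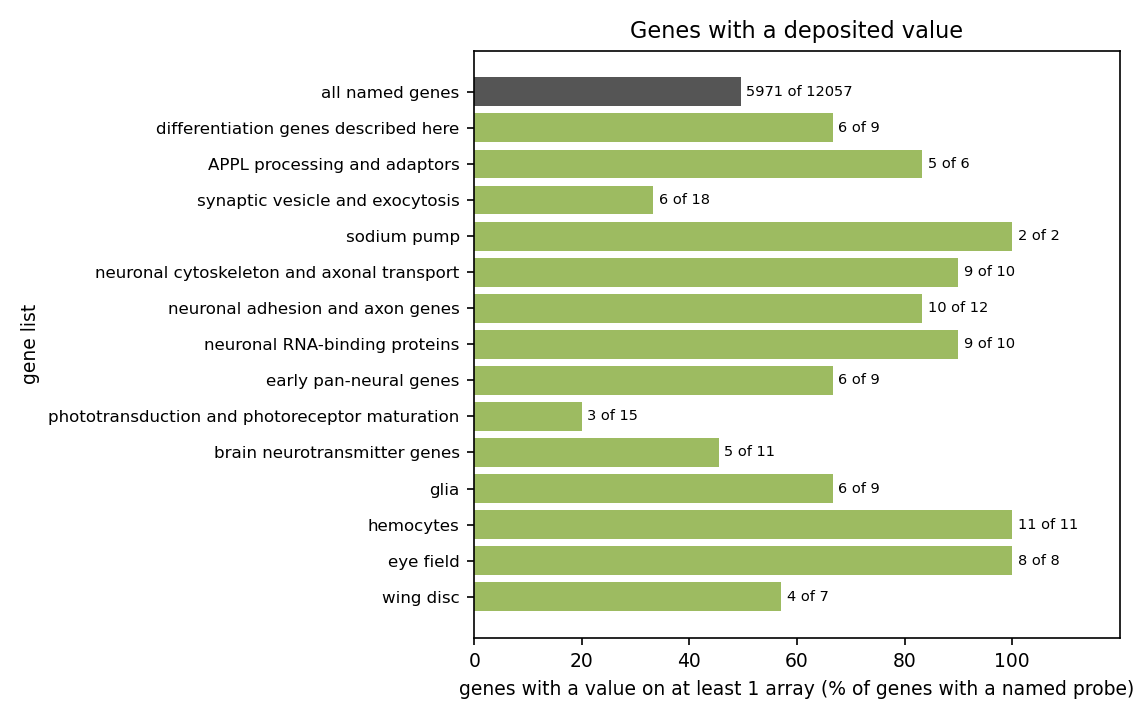
Share of genes with a named probe that had a value on at least 1 array (%, horizontal axis), for all named genes (grey) and each list (green), with counts beside the bars. Phototransduction and photoreceptor maturation genes (3 of 15) and synaptic vesicle genes (6 of 18) lie below all named genes (5971 of 12057), and the differentiation genes above (6 of 9).

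The measured differentiation genes thus did not move as 1 group. Their median was 0.39 in sevS11 over 5 tested, with 3 above 0 and 2 below, and -0.18 in sevd2 with 0 above 0. Over 7 arrays the root mean square difference was 0.375 between Appl and nrv3, 0.762 between Appl and chp, and 0.644 between nrv3 and chp. Of the 6 genes with values, 4 had ranges that did not overlap between the genotypes, Appl, nrv3 and elav with sevS11 above and Rop with sevS11 below, and ranges did not overlap for 33.4% of the 3781 genes with 2 or more values per genotype, with sevS11 above for 14.4% and below for 19%. In order of signed value, the difference of sevS11 minus sevd2 was highest for Appl, followed by elav (0.54 ± 0.19), nrv3 (0.44 ± 0.14), chp (-0.19 ± 0.15) and Rop (-0.34 ± 0.16), where elav and nrv3 did not differ beyond their errors.

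The calls depended on the 2 sevS11 extractions. Extraction 2 was array 3 alone for every gene. For Rop, extraction 1 was array 2 alone, in 1 dye orientation, so its sevS11 values without array 3 rest on a single array. When sevS11 array 3 was left out, the lone sevS11 extraction was assumed to vary like those of sevd2, and Rop (-0.67, limma adjusted p = 0.00181), chp (-0.59, adjusted p = 0.00267) and nrv3 (0.36, adjusted p = 0.0189) passed in sevS11 beside Appl. In that fit Appl (-0.44, limma adjusted p = 0.0134) and chp (-0.27, adjusted p = 0.0313) passed in sevd2, and Appl (0.96, adjusted p = 0.00426), Rop (-0.50, adjusted p = 0.0114) and nrv3 (0.37, adjusted p = 0.0383) between the genotypes. Over all genes 1745 then passed in sevS11, against 207 with every array and 58 without sevS11 array 1. With sevS11 extraction 1 left out instead, Appl (0.97, limma adjusted p = 0.00366), Rop (-0.35, adjusted p = 0.0290), nrv3 (0.52, adjusted p = 0.0140) and elav (0.52, adjusted p = 0.0476) passed in sevS11 and chp (-0.21, adjusted p = 0.121) did not, with 922 genes in all. Appl (-0.44, limma adjusted p = 0.0228) and chp (-0.27, adjusted p = 0.0417) then passed in sevd2, and Appl (1.42, adjusted p = 0.00745) and nrv3 (0.53, adjusted p = 0.0422) between the genotypes. The signs of these genes in sevS11 were the same from either extraction.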

How the data were processed

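RNA of sevS11 and sevd2 eye discs was compared with a wild-type pool on 7 2-colour arrays. The authors deposited log2 ratios per probe. The submitters' processing notes name limma, and base 2 follows its convention. Direction, background correction, normalisation and filter were not given in the sources used here. Swapped arrays correlated at 0.777 to 0.939 across probes, so the ratios had been turned to 1 direction. Array medians lay between 0.0012 and 0.0191.

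Of 16416 probes, 12533 were named by gene identifier, 120 by accession (Release 6 plus ISO1 MT gene table), 511 by the annotation's own symbol. Unnamed were 101 probes with several genes and 3151 absent from the annotation. Probes of a gene were averaged (247 genes), then the arrays of an extraction. For the single sevS11 array a dye effect was subtracted per gene, averaged over those of the 3 swapped pairs in which both arrays had a value. A gene with no such pair was not corrected. For elav and gl only the pair of sevd2 extraction 1 served, and for unc-13 only the sevS11 pair. The 3586 genes with a value in every extraction entered a linear model (limma 3.58.1 under R 4.3.3, lmFit and eBayes; 2 residual and 3.8 prior degrees of freedom), with Benjamini-Hochberg adjustment over all of them. Steps were tested on simulated data.

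Genes and lists were chosen with earlier results of these data known. Named were the 10 genes, sev, up to 3 genes per list by lowest p in sevS11 or in sevS11 minus sevd2, and the 3 genes nearest in ratio to each gene on all 7 arrays. A few genes outside this rule (such as those listed as without a value, Ptp69D and the neighbours of genes) were named after their values were seen. Alternative settings concerned the dye correction, normalisation (centring, scaling, quantile), which genes and probes were tested, a robust or array-level fit, a replicate block, the threshold, and leaving out each array or extraction.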

Additional observations from a re-analysis of the deposited data

Results flagged for a closer look

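Appl was singled out because each of its 3 sevS11 ratios was above 0 and each of its 4 sevd2 ratios below 0. The difference of sevS11 minus sevd2 was 1.16 ± 0.19 (SE, n = 2 extractions each; limma, adjusted p = 0.115), so the test of the difference over all genes was not passed. No array stood far from the other 3 in sevd2 for Appl, Rop, chp or nrv3 by Dixon's ratio, which was 0.390 to 0.768 over the 4 arrays and under its critical value for each gene.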

How the results depend on the processing

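For the 5 tested genes, 293 values kept their direction and side of the threshold, 28 came to pass, 4 ceased to pass and 5 changed sign. The counts below give the genes called in sevS11, those called in sevd2 and those called between the genotypes, which were 207, 3 and 2, with 1, 0 and 0 of the 5 differentiation genes. Without the dye correction they were 162, 0 and 1, with 0 of the 5 in sevS11. With the dye effect of the sevS11 pair, chosen after seeing the data, they were 222, 5 and 1, with 2 of the 5 in sevS11. With every lone array of a pair corrected, also chosen then, sevd2 had 16. Centring gave 203, 11 and 1. Scaling gave 116, 174 and 27, and quantile normalisation 145, 166 and 23, each with 0 of the 5 in sevS11. Genes on all 7 arrays gave 132, 13 and 0 of 2261. In sevS11 minus sevd2, testing genes with 1 extraction per genotype, a robust fit and each probe gave 1 each. The array-level fit gave 351, 35 and 34, with 3 of the 5 in sevS11 and 1 in the difference. An adjusted p of 0.1 gave 408, 33 and 24, with 4 of the 5 in sevS11. Leaving out single arrays or extractions gave 58 to 1745, 0 to 540 and 1 to 1516 genes, with 0 to 4, 0 to 2 and 0 to 3 of the 5. The chp difference changed sign with scaling (0.0144), and over the arrays and extractions left out it ran from -0.3176 to 0.0589; the sevd2 value of nrv3 was 0.0365 without sevd2 array 3. Over the left-out extractions, sevd2 values ran from -0.0848 to 0.0619 for nrv3 and from -0.3596 to 0.0524 for elav. None of these passed, and the cause was not tested.

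With the extraction number as a replicate block, 383, 92 and 85 genes passed, with 3 of the 5 in sevS11 and 1 in the difference. The numbers are only labels: differences between extractions 1 and 2 correlated at -0.065 between the genotypes. Only 2 extractions per genotype limit the precision, and the signal over background is unknown.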

Other observations

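The genes next to the differentiation genes along the chromosome were looked up after the other values were known. On either side of Rop, RfC4 stood at 0.28 and Ras64B at 0.15 in sevS11, where Rop was at -0.51, and neither passed (limma, adjusted p = 0.215 and 0.415). The measured neighbour of Appl, CG4293, stood at 0.00 in sevS11 and 0.07 in sevd2. Next to gl, CG7675 was lower in sevS11 (-0.50, limma adjusted p = 0.0421), while Nup43 on its other side did not pass (-0.53, adjusted p = 0.126). Ts, next to Rbp9, did not pass either (0.52, limma adjusted p = 0.0504). No tested neighbour but CG7675 passed in sevS11, where 5.77% of all genes tested did. Many neighbours were not tested, among them vnd beside Appl and svr and arg beside elav, which had no value.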
